A study of Mus musculus with 8 samples.

Results

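The Zbtb-named genes of mouse hematopoietic stem cells (HSCs) were the rows of the deposited gene table with a symbol, split at commas, that starts with Zbtb and a digit. They were 38 of 38172 rows, and the symbol was their only criterion of choice. The study sequenced polyadenylated RNA of HSCs freshly sorted from C57BL/6 bone marrow, wild type per the series' design text, at 24 months (old) and at 4 months (young). The sort took side population cells that carried Kit and Sca-1, lacked lineage markers and carried CD150. Each age had 2 biological replicates, numbered 13 and 14, and each replicate had 2 technical libraries, which were averaged (n = 2 at each age), from an estimated 22.3 to 66.5 M reads per library. How many mice made up a replicate is not given, and p-values cover only the spread among these 4 samples. In bulk RNA, fewer cells of a type and less RNA per cell cannot be told apart.

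Most Zbtb proteins pair an amino-terminal BTB domain, through which they dimerize and recruit corepressors such as Ncor1 and Bcor, with carboxy-terminal C2H2 zinc fingers that bind DNA. They act mainly as transcriptional repressors, and several direct blood cell fates in mice. Zbtb7a sets the B against T lineage choice and red cell maturation, Zbtb7b the CD4 T cell fate, Zbtb16 the natural killer T cell program and Zbtb46 marks classical dendritic cells. Zbtb33, Zbtb4 and Zbtb38 form the Kaiso group, which binds methylated CpG. The name also covers Zbtb8os, which is no zinc finger factor: it encodes archease, a cofactor of the tRNA ligase, and is named for its place on the opposite strand near Zbtb8a.

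HSCs of both ages transcribed nearly the whole family at modest levels. Levels are FPKM, which divides by gene length and allows genes to be compared. Of the 38 genes, 34 had a mean of at least 1 FPKM over the 4 replicates, 25 of at least 5 and 10 of at least 10, and the median was 6.8 FPKM. Zbtb12 was the most abundant, with 24.05 and 20.54 FPKM in old and 26.89 and 23.24 FPKM in young HSCs. Zbtb7a had 16.85 and 16.18 FPKM in old and 20.09 and 18.06 FPKM in young HSCs. Zbtb12 was the highest member in each replicate except old replicate 14, where Zbtb8os was higher. Zbtb8os followed with 15.05 and 21.29 FPKM in old and 15.87 and 18.01 FPKM in young HSCs, Zbtb9 with 14.97 and 18.15 FPKM in old and 16.01 and 13.82 FPKM in young HSCs, and Zbtb22 with 15.12 and 16.4 FPKM in old and 15.28 and 14.84 FPKM in young HSCs. These last 3 changed places from replicate to replicate, and in old replicate 14 all 3 were above Zbtb7a. The order of Zbtb7a and these 3 was therefore not resolved.

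At the other end stood genes known from mature lymphoid or dendritic cells and 2 genes close to 0. Zbtb46 had 0.928 and 0.838 FPKM in old and 1.09 and 0.988 FPKM in young HSCs. Zbtb32, a repressor of lymphocyte activation, had 0.271 and 0.164 FPKM in old and 0.215 and 0.198 FPKM in young HSCs. Zbtb8b had 0.0944 and 0.0914 FPKM in old and 0.0396 and 0.0183 FPKM in young HSCs. Zbtb7c, a paralog of Zbtb7a, was the member that failed the filter on low values, with scaled values of 6.5 and 2 in old and 0 and 3 in young HSCs. The T cell factor Zbtb7b was present at 4.08 and 3.74 FPKM in old and 4.09 and 3.99 FPKM in young HSCs. Of the 7 T cell markers (Cd3d, Cd3e, Cd3g, Cd4, Cd8a, Cd5 and Trat1) only Cd4 passed the filter, and their summed FPKM was 0.538 and 0.421 in old and 0.662 and 1.7 in young HSCs, below the level of Zbtb7b in each replicate.

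**Figure D1:**
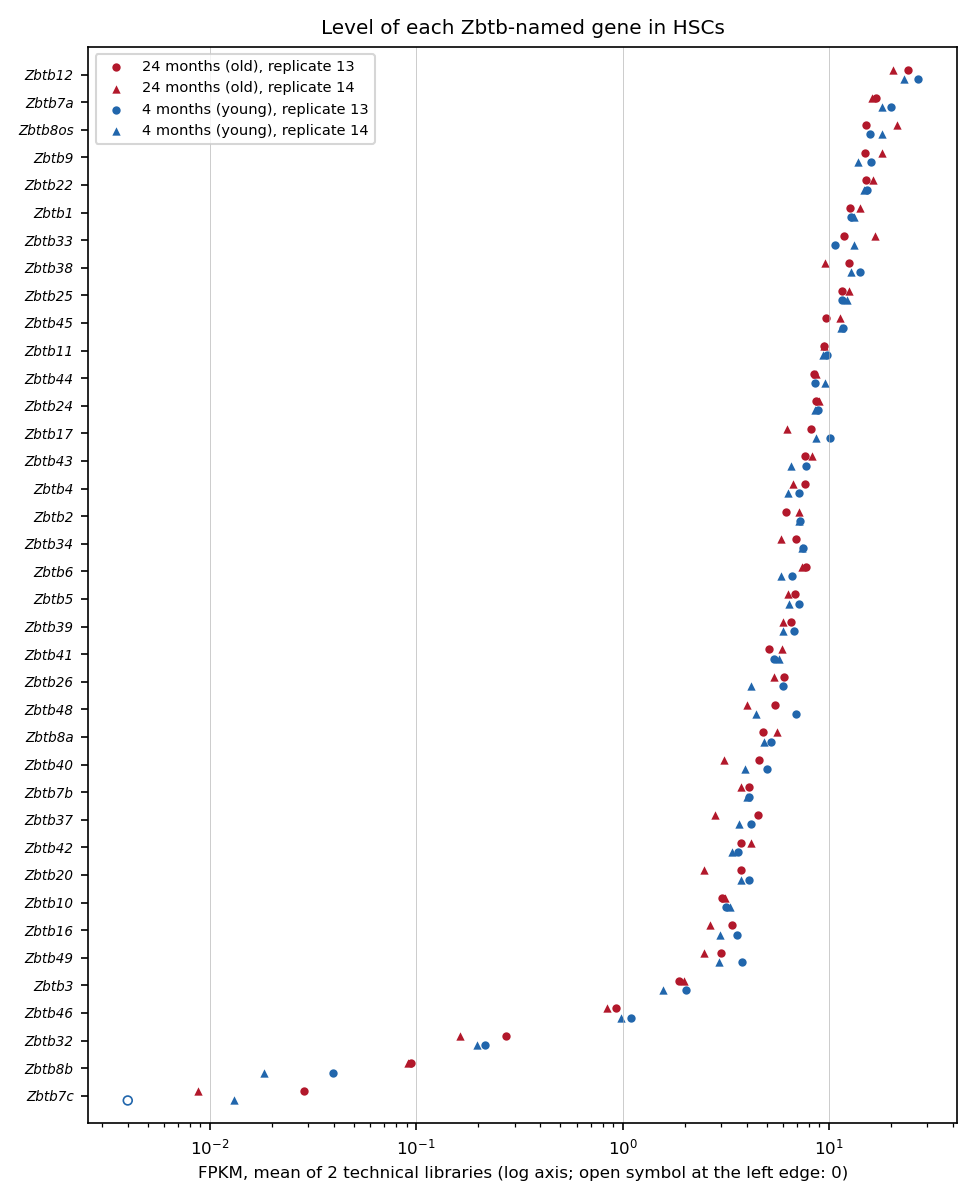
Each row is a Zbtb-named gene in order of its mean level, and the log axis gives FPKM in each biological replicate (red, 24 months; blue, 4 months; circles, replicate 13; triangles, replicate 14; an open symbol marks 0). From Zbtb12 to Zbtb3 all replicates of both ages lie between 26.89 and 1.58 FPKM, and the 4 lowest genes are under 1 FPKM on average.

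Most members had a CpG-rich promoter, and the 3 scarcest of those with a promoter sequence did not. RefSeq promoter windows of the GRCm38.p6 build, 250 bases before to 50 after each annotated start, matched 33 of the 38 genes by symbol. Zbtb7c, Zbtb10, Zbtb16, Zbtb40 and Zbtb48 had no entry. A window was counted as CpG-rich with at least 50% G and C and at least 0.6 of the CpG dinucleotides that its base composition predicts. The promoters of 3 abundant and 3 scarce members are shown, with CpG dinucleotides in capitals, 5′ to 3′ on the strand of the gene. Zbtb12 and Zbtb7a had the highest levels, and Zbtb46, Zbtb32 and Zbtb8b the lowest, of those with a window. Zbtb1 was picked, although Zbtb8os, Zbtb9 and Zbtb22 were more abundant, with 19, 30 and 22 CpG in their windows.
Zbtb12 (GRCm38.p6, chr17:34894309-34894608, plus strand): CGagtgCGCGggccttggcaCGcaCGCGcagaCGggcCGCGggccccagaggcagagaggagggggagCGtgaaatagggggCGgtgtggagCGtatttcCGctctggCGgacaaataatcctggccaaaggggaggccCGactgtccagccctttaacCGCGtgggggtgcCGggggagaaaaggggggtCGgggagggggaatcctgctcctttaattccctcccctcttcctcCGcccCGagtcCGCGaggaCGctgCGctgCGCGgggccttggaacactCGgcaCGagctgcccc
Zbtb7a (chr10:81136021-81136320, plus strand): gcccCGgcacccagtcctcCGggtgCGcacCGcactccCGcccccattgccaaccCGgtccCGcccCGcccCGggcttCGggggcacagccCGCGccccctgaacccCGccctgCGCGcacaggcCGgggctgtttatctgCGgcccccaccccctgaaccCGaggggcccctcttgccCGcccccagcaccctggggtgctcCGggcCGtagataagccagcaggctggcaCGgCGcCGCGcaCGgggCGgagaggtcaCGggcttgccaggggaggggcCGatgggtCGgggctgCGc
Zbtb1 (chr12:76370270-76370569, plus strand): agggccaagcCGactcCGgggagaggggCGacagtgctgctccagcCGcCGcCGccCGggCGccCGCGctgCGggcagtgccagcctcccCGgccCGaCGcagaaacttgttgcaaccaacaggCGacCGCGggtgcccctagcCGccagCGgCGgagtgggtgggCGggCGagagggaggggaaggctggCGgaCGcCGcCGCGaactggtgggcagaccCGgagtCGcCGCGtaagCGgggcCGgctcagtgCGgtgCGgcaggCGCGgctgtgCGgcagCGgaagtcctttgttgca
Zbtb46 (chr2:181424339-181424638, minus strand): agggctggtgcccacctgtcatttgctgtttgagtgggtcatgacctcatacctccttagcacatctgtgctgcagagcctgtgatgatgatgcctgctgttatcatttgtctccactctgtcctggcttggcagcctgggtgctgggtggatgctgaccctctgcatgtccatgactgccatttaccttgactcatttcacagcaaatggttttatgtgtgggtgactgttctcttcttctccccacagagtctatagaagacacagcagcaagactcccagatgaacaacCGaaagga
Zbtb32 (chr7:30598860-30599159, minus strand): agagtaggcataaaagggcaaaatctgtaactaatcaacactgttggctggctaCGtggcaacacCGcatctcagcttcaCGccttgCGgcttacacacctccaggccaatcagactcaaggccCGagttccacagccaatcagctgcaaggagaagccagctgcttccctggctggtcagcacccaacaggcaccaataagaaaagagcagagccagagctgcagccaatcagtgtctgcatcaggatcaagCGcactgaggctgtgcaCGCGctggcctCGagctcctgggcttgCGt
Zbtb8b (chr4:129440769-129441068, minus strand): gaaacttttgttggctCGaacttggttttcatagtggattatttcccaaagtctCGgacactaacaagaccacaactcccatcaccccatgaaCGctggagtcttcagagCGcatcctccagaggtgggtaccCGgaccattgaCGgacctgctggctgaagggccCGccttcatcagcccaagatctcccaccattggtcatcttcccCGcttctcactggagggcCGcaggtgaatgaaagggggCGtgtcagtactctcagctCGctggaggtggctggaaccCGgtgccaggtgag

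These windows held 29 CpG in Zbtb12, 31 in Zbtb7a and 39 in Zbtb1, against 1 in Zbtb46, 10 in Zbtb32 and 12 in Zbtb8b. A second annotated start of Zbtb32 had 3. Of the 33 matched genes 27 had a CpG-rich window (81.8%), against 48.9% of the 15818 genes of the table matched by symbol. These percentages do not compare genes at equal levels. A mean of at least 1 FPKM was reached by 34 of the 38 members. Among all matched genes it was reached by 79.5% of those with a CpG-rich window and 25.6% of those without. The higher percentage in the members therefore cannot be told apart from their being transcribed. The 27 members with a CpG-rich window had mean levels of 3.05 to 23.7 FPKM with a median of 8.31. The 6 genes with no CpG-rich window were Zbtb20, Zbtb3, Zbtb32, Zbtb46, Zbtb7b and Zbtb8b, with levels of 0.0609 to 3.97 FPKM and a median of 1.42. Among all matched genes the medians were 10.3 FPKM with and 0.00998 FPKM without such a window, so this split was a property of the table as a whole and not of the family. Across the 33 genes the count of CpG and the level had a Spearman rho of 0.42, a description over genes measured in the same libraries. Within the CpG-rich group a higher count did not always go with a higher level, as in the pair picked here, where Zbtb41 held 45 CpG at 5.55 FPKM and Zbtb8os 19 at 17.55 FPKM. The Kaiso core site TCCTGCNA (either strand) was in 1 of the 40 windows, that of Zbtb37, and in 4.96% of all windows. The E-box CACGTG was in 5 of the 40 windows and in 7.15% of all windows. Both windows of Zbtb25, which overlap, were among the 5, so this is a count of windows and not of genes.

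**Figure D2:**
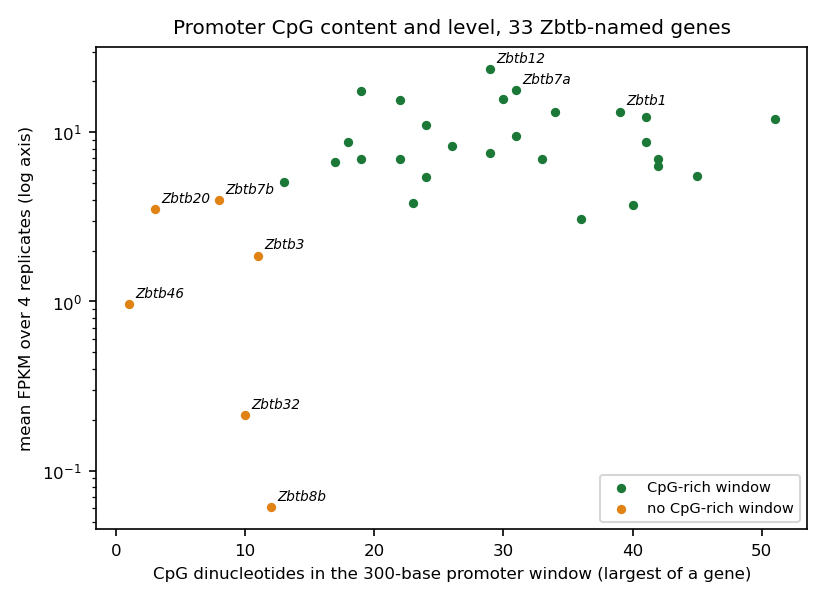
Each point is a Zbtb-named gene with a RefSeq promoter, the horizontal axis counts CpG dinucleotides in its richest 300-base window and the log axis gives the mean FPKM over the 4 replicates. The 6 genes without a CpG-rich window lie at or under 3.97 FPKM, and the 27 others lie at 3.05 FPKM or above.

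The comparison of old with young HSCs asked whether levels of these factors change with age. None of the 37 tested Zbtb-named genes passed the test, and for 25 of them the fitted difference was under 0.2 on the log2 scale. The test was limma's moderated test on log2 of the authors' scaled values, fitted over all 18318 genes that reached a scaled value of 10 in at least 2 replicates, with Benjamini-Hochberg adjustment and a threshold of 0.05. It called 0 of 37 members in either direction (0 in limma-voom, and 1 at an unadjusted p under 0.05, or 2.7%, against 14.0% of all tested genes), where 2.55% of all tested genes were called, 2.01% higher and 0.54% lower in old HSCs. Of the members 16 lay above 0 and 21 below. Their median log2 fold change, 24 over 4 months, was -0.03, while that of all tested genes was 0.04 with 56.5% above 0. The median absolute log2 fold change was 0.14 in the members and 0.20 in all tested genes. It was under 0.4 in 36 members, all but Zbtb8b. The old replicates lay both above or both below the young ones in 11 members (29.7%), 3 above and 8 below, against 42.1% of all tested genes (24.7% above and 17.4% below).

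The precision allows a bound on what was missed. The 95% interval of the log2 fold change, taken gene by gene, lay inside -1 to 1 in 35 of the 37 members, that is, inside a 2-fold change either way, and in 66.5% of all tested genes. The exceptions were Zbtb8b and Zbtb32, both near the lowest testable level. Standard errors were between 0.13 and 0.52 with a median of 0.16. The technical libraries of a replicate differed by a median absolute log2 of 0.05 in the members. The biological replicates differed by 0.20 within old and 0.16 within young HSCs, each above the median age difference of 0.14. An age difference is between means of 2 replicates and varies less than a difference between single replicates. The order of these medians therefore decides nothing about age. In 7 of the 37 members (18.9%) the age difference exceeded both within-age differences, against 30.8% of all tested genes.

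**Figure D3:**
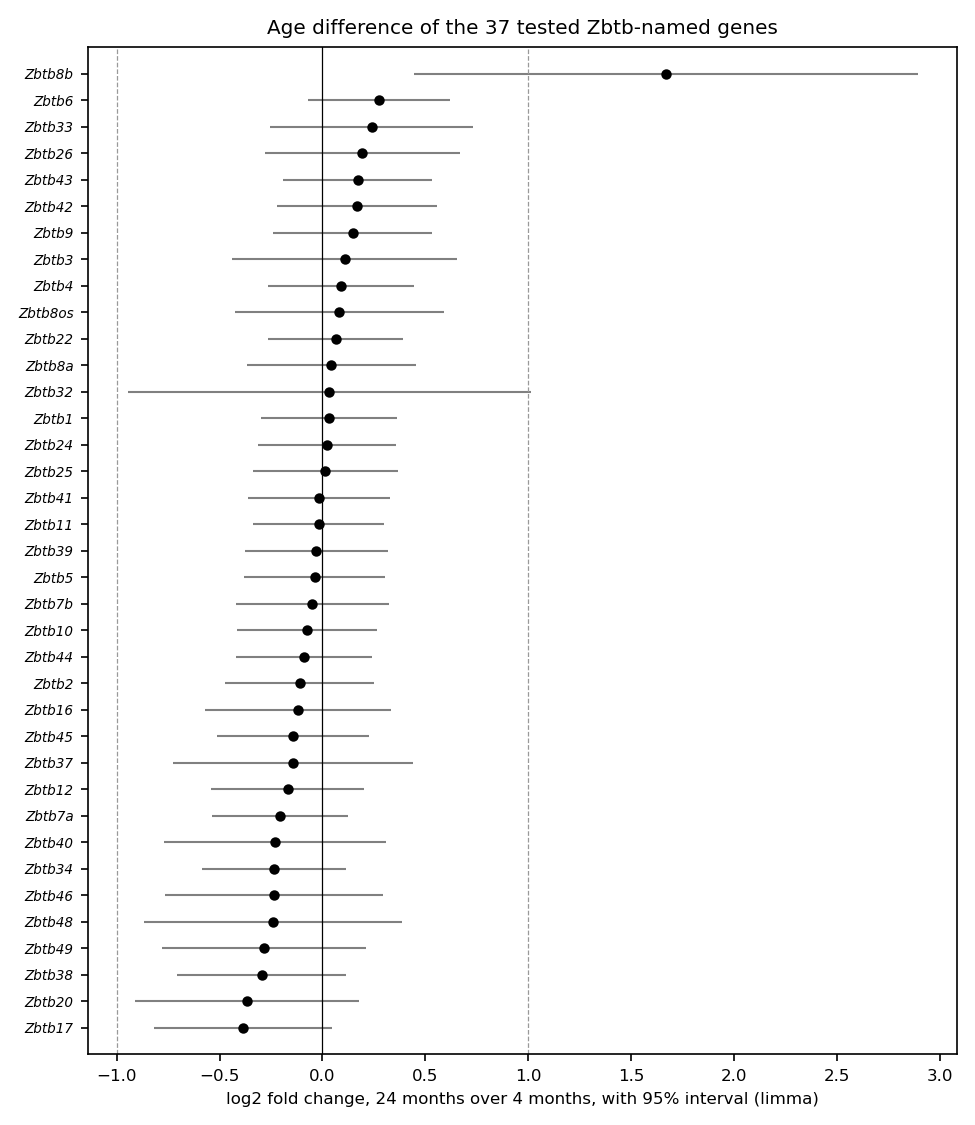
Points are the log2 fold change, 24 over 4 months, of each of the 37 tested Zbtb-named genes, bars are 95% intervals from limma, and dashed lines mark a 2-fold change either way. Only the interval of Zbtb8b, which passed the filter through old HSCs alone, leaves out 0, without adjustment for the number of genes. All but those of Zbtb8b and Zbtb32 stay between the dashed lines.

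**Figure D4:**
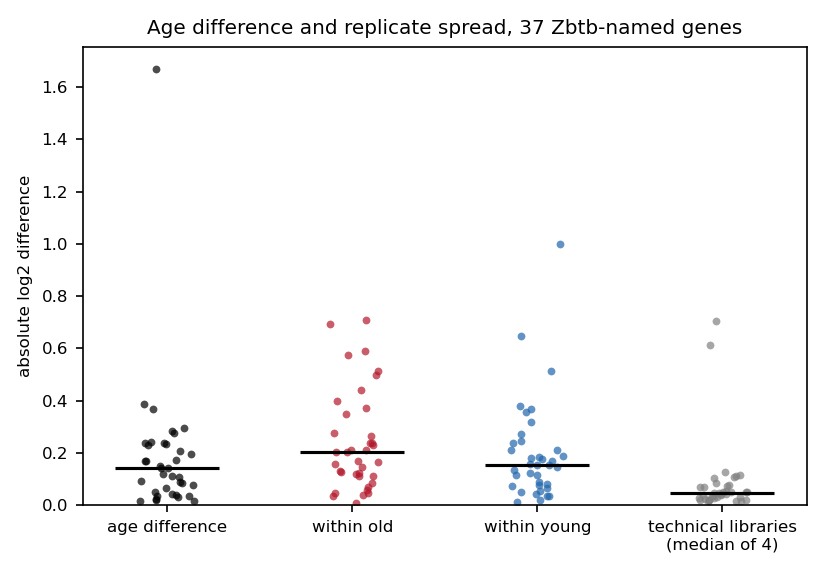
Each point is a tested Zbtb-named gene and the axis is an absolute log2 difference: between the ages, between the 2 old replicates, between the 2 young replicates, and between technical libraries. Horizontal bars are medians, at 0.14, 0.20, 0.16 and 0.05. The age difference is between means of 2 replicates, which vary less than single replicates, so it is not on equal terms with the others.

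Among the blood lineage regulators 0 of 10 passed in limma, 7 lay below 0, and the median of their log2 fold changes was -0.08. These 10 were Zbtb1, Zbtb7a, Zbtb7b, Zbtb11, Zbtb16, Zbtb17, Zbtb20, Zbtb24, Zbtb32 and Zbtb46. Over all tested genes 2.55% passed, 56.5% lay above 0 and the median was 0.04. At that share of calls, 0 of 10 says little about the list. Zbtb17, with the lowest fitted value, encodes Miz-1, the partner through which Myc represses genes such as Cdkn1a and Cdkn2b and a factor that early lymphoid cells of mice need. It had 8.15 and 6.3 FPKM in old and 10.17 and 8.62 FPKM in young HSCs. Both old replicates were below both young ones, with old replicate 13 close to young replicate 14. The log2 fold change was -0.39 (SE 0.18, 95% interval -0.82 to 0.05, limma adjusted p = 0.426), and -0.20 without old replicate 14. The gene lies on chromosome 4 from 141000588 to 141023852 (mm9). Its span overlaps that of Spen, which had a higher scaled value, on the opposite strand. Only spans were compared, so whether any of its reads are ambiguous without strand information is not known. Zbtb7a, whose loss in mouse HSCs drives premature T lineage differentiation through Notch, had the values given above, with both old replicates below both young ones and a log2 fold change of -0.21 (SE 0.14, limma adjusted p = 0.618).

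Zbtb20, a factor of plasma cells, liver and brain, had 3.74 and 2.49 FPKM in old and 4.1 and 3.77 FPKM in young HSCs. Old replicate 13 was nearly equal to young replicate 14, old replicate 14 was the lowest, and the log2 fold change was -0.37 (SE 0.23, limma adjusted p = 0.579), and -0.07 without old replicate 14. Its span on chromosome 16 also overlaps 2 models on the opposite strand, 1 of them with a higher scaled value. Zbtb16, the PLZF of natural killer T cells and germline stem cells, had 3.38 and 2.66 FPKM in old and 3.57 and 2.96 FPKM in young HSCs, with overlapping ages. Zbtb1, which mice need for T and natural killer cells, had 12.66 and 14.13 FPKM in old and 12.84 and 13.3 FPKM in young HSCs. Its interval of the ratio of old to young was 0.814 to 1.29. Zbtb11, known in zebrafish for neutrophil development, varied little, with 9.42 and 9.47 FPKM in old and 9.79 and 9.35 FPKM in young HSCs.

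The methyl-CpG binders of the Kaiso group had fitted values of both signs. In limma 0 of 3 passed, where 2.55% of all tested genes did. Zbtb38, a repressor of methylated promoters counted in 1 row with the transcript E030011O05Rik, had 12.58 and 9.55 FPKM in old and 14.08 and 12.84 FPKM in young HSCs. Both old replicates were lower, old replicate 13 by a margin smaller than the difference between the old replicates, and the log2 fold change was -0.30 (SE 0.17, limma adjusted p = 0.543), and -0.10 without old replicate 14. Zbtb33, which encodes Kaiso itself, had 11.79 and 16.81 FPKM in old and 10.68 and 13.29 FPKM in young HSCs. The ages overlapped, with a log2 fold change of 0.24 (SE 0.21, limma adjusted p = 0.705) that turned to -0.02 without old replicate 14. Zbtb4 had 7.69 and 6.69 FPKM in old and 7.14 and 6.35 FPKM in young HSCs. The summed level of the 3 genes was 32.1 and 33 FPKM in old and 31.9 and 32.5 FPKM in young HSCs, and the ages overlapped.

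The telomere-binding members both had fitted values below 0 and neither passed, where 56.5% of all tested genes lay above 0 and 2.55% passed. Zbtb48, the TZAP protein that trims long telomeres, had 5.46 and 4.03 FPKM in old and 6.93 and 4.42 FPKM in young HSCs. Its young replicates differed by 0.65 on the log2 scale, against an age difference of -0.24. Zbtb10, which binds variant telomeric repeats in human cells, had 3.04 and 3.13 FPKM in old and 3.17 and 3.34 FPKM in young HSCs, so that the old replicates lay below the young ones by a log2 difference of -0.08.

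The highest fitted value of the family belonged to a gene at the edge of detection. Zbtb8b, on chromosome 4 from 129103009 to 129118062 (mm9), had scaled values of 15.5 and 15 in old and 6.5 and 3 in young HSCs, from reads that amount to less than 0.1 FPKM. Both old replicates were above both young ones. The log2 fold change on the log2(value + 0.5) scale was 1.67 (SE 0.52, 95% interval 0.45 to 2.89), and the test was not passed (limma adjusted p = 0.192). The filter value of 10 was reached only in the old replicates, so the gene entered the test through the age where it was high. Its separation by age, interval and place as the 1 member at an unadjusted limma p under 0.05 are conditional on that. The size rests on few reads: the log2 fold change was 1.078 with a pseudocount of 5, 2.08 and 1.22 with either technical library alone, and 1.17 to 2.17 without 1 replicate, and the technical libraries differed by a median of 0.61. Its neighbor Zbtb8a had 4.82 and 5.58 FPKM in old and 5.24 and 4.83 FPKM in young HSCs, and Zbtb8os, on the other side of Zbtb8a, overlapped between the ages too. Zbtb32 had a median log2 difference of 0.70 between technical libraries, so its age difference was not detectable at this depth. The span of Zbtb32 also overlaps 1 model with a higher scaled value on the opposite strand.

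The remaining members with the smallest p were factors with little described function in blood. Zbtb6 had 7.74 and 7.38 FPKM in old and 6.65 and 5.86 FPKM in young HSCs, both old replicates above both young ones, with a log2 fold change of 0.28 (SE 0.15, limma adjusted p = 0.496). Zbtb26, on the same strand of chromosome 2 with 1248 bases between the mm9 models, had 6.08 and 5.41 FPKM in old and 5.99 and 4.2 FPKM in young HSCs, and its ages overlapped. Zbtb34 had 6.9 and 5.85 FPKM in old and 7.5 and 7.44 FPKM in young HSCs, with both old replicates lower and a log2 fold change of -0.23 (SE 0.15, limma adjusted p = 0.583), and -0.12 without old replicate 14. Zbtb43, its neighbor on the same strand, had 7.69 and 8.31 FPKM in old and 7.73 and 6.52 FPKM in young HSCs and a log2 fold change of 0.17. Adjacent members thus had fitted values of the same sign for Zbtb6 and Zbtb26 and of opposite sign for Zbtb34 and Zbtb43, none of which passed.

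Zbtb1 and Zbtb25 lie head to head on chromosome 12 with 705 bases between their models, and their levels were alike. Zbtb25 had 11.53 and 12.56 FPKM in old and 11.61 and 12.25 FPKM in young HSCs, and the log2 fold changes were 0.03 for Zbtb1 and 0.01 for Zbtb25. Zbtb49, which raises CDKN1A together with Miz-1 in human cells, had 3 and 2.49 FPKM in old and 3.8 and 2.92 FPKM in young HSCs, with overlapping ages (log2 fold change -0.28, limma adjusted p = 0.647). Zbtb2 and Zbtb5, described in human cells as repressors of CDKN1A, had log2 fold changes of -0.11 and -0.04. Zbtb42, a factor of skeletal muscle, had both old replicates above both young ones, at 3.73 and 4.18 FPKM in old and 3.63 and 3.41 FPKM in young HSCs. Zbtb45 and Zbtb46 had both old replicates below the young ones, with log2 fold changes of -0.14 and -0.24. Zbtb24, whose human counterpart is mutated in an immunodeficiency with centromere instability, had 8.69 and 8.98 FPKM in old and 8.86 and 8.53 FPKM in young HSCs. Zbtb3, Zbtb9, Zbtb12, Zbtb22, Zbtb37, Zbtb39, Zbtb40, Zbtb41, Zbtb44 and Zbtb7b completed the family with overlapping ages and fitted values from -0.23 to 0.15.

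The authors' deposited table, whose replicate structure is not stated in the sources used here, marked 3 of the 38 members as lower in old HSCs and 0 as higher (7.89% of the members, against 11.8% of all rows with an FDR, 5.82% lower and 6.0% higher). In the authors' deposited table these were Zbtb17 (log2 fold change -0.40, FDR 0.00652), Zbtb20 (-0.36, FDR 0.0268) and Zbtb38 (-0.31, FDR 0.0471). In the limma fit on biological replicates these were the 3 lowest fitted values of the family, and none passed. The 2 old replicates differed by 0.37 on the log2 scale in Zbtb17, 0.59 in Zbtb20 and 0.40 in Zbtb38, as differences between single replicates. The age differences, between means of 2 replicates and so less variable, were -0.39, -0.37 and -0.30.

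The BTB zinc finger genes that carry other names held the call that the Zbtb-named genes lacked. Bcl6, the repressor that directs germinal center B cells and follicular helper T cells and recruits Bcor and Ncor1, had 5.47 and 4.94 FPKM in old and 2.46 and 2.19 FPKM in young HSCs. Old HSCs were above young HSCs in both replicates, by more than the spread within either age, with a log2 fold change of 1.16 (SE 0.17, 95% interval 0.76 to 1.57, limma adjusted p = 0.0205). It was the 1 gene that passed among the 11 tested of this list, where 2.01% of all tested genes were called higher. The gene lies on chromosome 16 from 23965138 to 23988698 (mm9). The call depends on having all 4 replicates: without any 1 of them the log2 fold change was 1.081 to 1.244 and the adjusted p between 0.0733 and 0.212. It was also lost with no filter on low values (adjusted p = 0.113) and in limma without a trend (adjusted p = 0.0615). The other 10 did not pass, with Bcl6b at 1.07 and 0.937 FPKM in old against 0.855 and 0.65 FPKM in young HSCs and Zfp238 (now Zbtb18) at 10.08 and 9.14 FPKM in old against 12 and 11.55 FPKM in young HSCs. The list's median log2 fold change was -0.01.

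Corepressors and other partners of BTB proteins were abundant and showed small differences. Of 28 tested genes 0 passed in limma (1 at an unadjusted p under 0.05, where 14.0% of all tested genes were), 23 lay below 0, and the median log2 fold change was -0.10. Over all tested genes 2.55% passed, 56.5% lay above 0 and the median was 0.04. That last median moved with the scaling, to -0.009 with quantile normalization. Bcorl1, a relative of the corepressor Bcor, had 5.48 and 4.78 FPKM in old and 7.2 and 6.57 FPKM in young HSCs, with a log2 fold change of -0.43 (limma adjusted p = 0.253). Bcor, in 1 row with 2900008C10Rik, had 19.16 and 13.73 FPKM in old and 21.14 and 20.14 FPKM in young HSCs (log2 fold change -0.35, limma adjusted p = 0.508). Both genes had old replicates below young ones, as did 17.4% of all tested genes. They were named for the smallest p of their list, which favors such a separation. The 5 genes with a methyl-CpG binding domain had a median of -0.19 and 0 passed (0 at an unadjusted p under 0.05), with Mbd1 at 22.05 and 21.25 FPKM in old against 26.12 and 23.85 FPKM in young HSCs. Mbd4 had 6.72 and 5.81 FPKM in old and 7.85 and 6.91 FPKM in young HSCs. In Mbd1 and Mbd4, chosen by smallest p in the same way, the old replicates were below the young ones.

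Genes described elsewhere as targets of Zbtb proteins, such as Cdkn1a, Bcl2 and Dll4, had fitted values of both signs, 7 above and 8 below 0. Of 21 listed, 15 were tested and 0 passed in limma, with 6 at an unadjusted p under 0.05 (14.0% of all tested genes were). The fitted values ran from -0.82 in Mcm10 to 1.38 with a median of -0.09. Those of the Zbtb-named genes ran from -0.39 to 1.67, and those of all tested genes from -4.36 to 5.37. Id2, an inhibitor of E proteins, had 11.8 and 16.1 FPKM in old and 4.07 and 6.9 FPKM in young HSCs (log2 fold change 1.38, limma adjusted p = 0.0649, and 0.0343 without young replicate 14). Runx3, a gene that Zbtb7b represses in T cells, had 14.47 and 11.92 FPKM in old and 19.15 and 21.9 FPKM in young HSCs (log2 fold change -0.64, limma adjusted p = 0.112). Both were separated by age in these replicates without passing the threshold. They were named for the smallest p of their list, which favors such a separation, and 42.1% of all tested genes were separated.

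**Figure D5:**
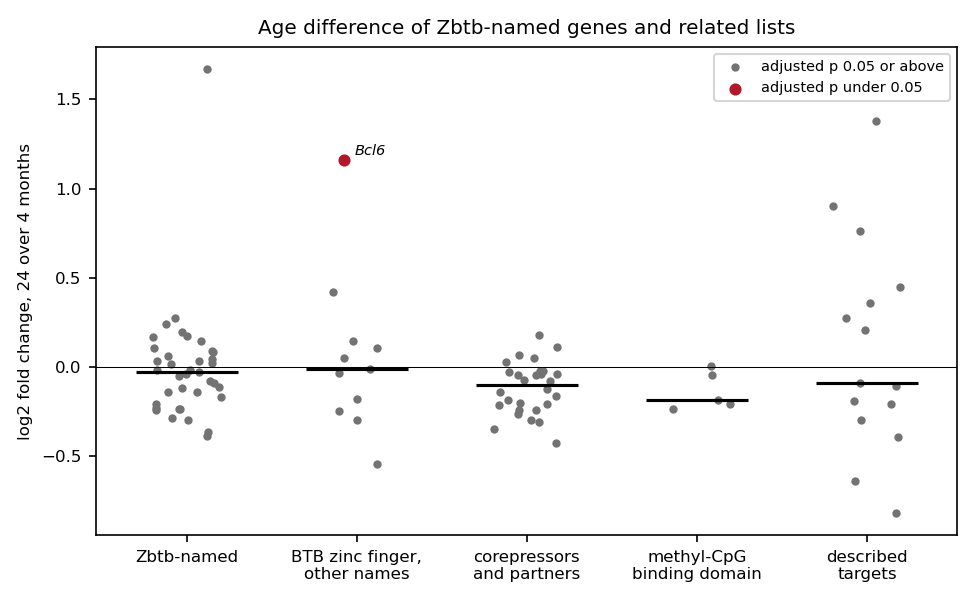
Each point is a tested gene, the axis is the log2 fold change, 24 over 4 months, and horizontal bars are the medians of the Zbtb-named genes, of BTB zinc finger genes with other names, and of the partner, methyl-CpG binding domain and target lists. Bcl6 at 1.16 is the point that passed the test, and the high Zbtb-named point at 1.67 is Zbtb8b.

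Values of other cells moved with age or with a replicate beside these results. The HSC markers were present in every replicate, with Kit at 224.1 and 247.9 FPKM in old and 218.5 and 213 FPKM in young HSCs. Slamf1 and Procr, 2 of the 10, passed as higher, and all 10 lay above 0. Over all tested genes 2.01% passed as higher and 0.54% as lower, and 56.5% lay above 0. Of the 11 neutrophil markers 0 passed in limma, 5 were at an unadjusted p under 0.05 (14.0% of all tested genes were), and 10 lay below 0. They summed to 235 and 529 FPKM in old and 306 and 940 FPKM in young HSCs, so the replicates numbered 14 were higher at both ages. Of the erythroid markers 5 of 10 passed as lower and all 10 lay below 0, with sums of 59.6 and 88.4 FPKM in old and 108 and 99.7 FPKM in young HSCs. Among the stroma markers 3 of 7 passed as lower and all 7 lay below 0, with sums of 8.52 and 7.46 FPKM in old and 22.5 and 27.1 FPKM in young HSCs. The 8 dendritic cell and macrophage markers summed to 15.8 and 19.1 FPKM in old and 21 and 30.7 FPKM in young HSCs. Among the 6 tested, Flt3 passed as lower and Clec9a as higher, and 1 lay above 0 and 5 below. The 8 B and plasma cell markers summed to 25.2 and 35 FPKM in old and 24.5 and 37.1 FPKM in young HSCs, and the 5 megakaryocyte markers to 205 and 238 FPKM in old and 183 and 244 FPKM in young HSCs. No defining marker of these lists was at 0 in all replicates. The part of these cells in the member values was not tested.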

How the data were processed

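Each library has 2 deposited columns, FPKM and a whole-number score. The score is not a raw count: it is read numbers that the authors scaled, by a library's single factor, before rounding, as tested on whole numbers that are skipped or doubled. Factors estimated in this way were 0.617 to 1.839. Scores sum to 40.7 to 44.2 M per library, which corresponds to 22.3 to 66.5 M reads. The deposited FPKM is that score times 1 constant per gene. For 24 over 4 months, the authors' deposited table gives an FDR, which is an adjusted p-value, beside the log2 fold change. The gene models join Ensembl, UCSC and RefSeq transcripts, per the file headers. Per the submitters' processing notes, coordinates are mm9, and DESeq is listed with no role. The aligner, the counting tool and any use of strand are not stated in these sources. RefSeq promoters are of another build, GRCm38.p6, matched by symbol only.

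Technical libraries were averaged, and log2(score + 0.5) of the 4 replicates was fitted by age in R 4.3.3 with limma 3.58.1, using a trended prior and the two-sided moderated test. Genes with a score of at least 10 in at least 2 replicates were tested, and p-values were adjusted over all of them. The fit was also run on simulated data with the same spread in every gene and independent replicates, a simpler setting than these data. Members are accounted for in full; values per replicate are given for the 10 with the smallest p, the 5 highest and 3 lowest levels, and others by role, the last chosen after values were seen. From each list, genes that passed or the 2 with the smallest p are named, and further genes there were chosen after values were seen. Members, lists and tests were chosen with earlier results of these data known. The intervals cover the spread between these samples only. Alternatives varied the pseudocount, filter, scaling, model, technical library, replicate block and replicates.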

Additional observations from a re-analysis of the deposited data

How the results depend on the processing

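Limma called 0 Zbtb-named genes as lower under each of 16 alternatives and 0 as higher under 15 of them. With the replicate number as a replicate block it called 1 member, Zbtb8b (log2 fold change 1.67, adjusted p = 0.0136), together with 1698 genes higher and 1068 lower over all genes, against 368 and 99 without the block. The number is shared by the ages in the labels, which do not say what it stands for. Over 18318 genes the difference of replicate 13 minus 14 in old HSCs had a correlation of 0.544 with that in young HSCs. That rests on 2 pairs and is a hint from the data, not the design. Over all genes the counts of higher and lower calls also moved with no filter on low values (0 and 0, with 2943 at an unadjusted p under 0.05), with genes kept from a mean of 1 FPKM (237 and 65) and with the lower-numbered technical library (242 and 51). Lower calls were 56 without a trend and 52 with the higher-numbered technical library. Leaving out 1 replicate gave 0 to 206 higher and 0 to 68 lower calls, with 0 of both when an old replicate was left out (3669 and 1933 at an unadjusted p under 0.05). The cause of these shifts was not tested.

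Of 37 members, 18 kept the sign of their fitted value under each alternative and 19 had the other sign under at least 1. Members above 0 numbered 16, against 11 with median-of-ratios factors and with quantile normalization, and the median of all tested genes moved by less than 0.1. Without young replicate 13 they numbered 19, and the median of the members turned to 0.008. Without young replicate 14 they numbered 12, with a median of -0.06. The balance of signs in the members was therefore not stable. The log2 fold change of Zbtb32 turned to -0.005 with TMM, -0.011 with median-of-ratios factors, -0.006 with limma-voom, -0.088 with quantile normalization and -0.399 with the higher-numbered technical library. Without 1 replicate it ran from -0.321 to 0.387, that of Zbtb33 from -0.016 to 0.496 and that of Zbtb8os from -0.167 to 0.332. In the members with the lowest fitted values it ran from -0.572 to -0.2 in Zbtb17, from -0.661 to -0.071 in Zbtb20, from -0.494 to -0.097 in Zbtb38, from -0.475 to -0.095 in Zbtb49 and from -0.352 to -0.116 in Zbtb34. Bcl6 kept its direction under each alternative, and its adjusted p was 0.113 with no filter and 0.0615 without a trend. With the block Bcorl1 (0.0303), Id2 (1.85e-06) and Runx3 (0.00262) passed, as did Id2 without young replicate 14 (0.0343). With n = 2 per age, the 95% interval of the log2 fold change in the main fit included 0 in each tested member but Zbtb8b.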
